A study of Saccharomyces cerevisiae with 12 samples.

Results

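Budding yeast lacking ATG41 was compared directly with budding yeast lacking ATG1, both starved of zinc, to see what the loss of ATG41 brings beyond the loss of autophagy initiation. The comparison used 8 of the 12 RNA-seq libraries of the series, chosen by genotype: 4 of the ATG41 deletion strain (atg41) and 4 of the ATG1 deletion strain (atg1), with the 4 wild-type libraries (WT) given beside them for orientation. All 3 strains are of the diploid laboratory background BY4743. Cells were grown with ample zinc, washed 3 times, and kept for 8 h in zinc-limiting medium at 30 °C before RNA extraction, so neither side of the comparison was zinc-replete. Libraries were poly-A selected and made with a kit that does not mark strand, so genes that overlap, or face an antisense gene, share reads. Neither separate cultures for the 4 libraries of each strain nor the number of clones is stated in the labels, so p-values measure the spread between these libraries, which may be technical.

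Autophagy encloses cytoplasm in a double membrane and delivers it to the vacuole for breakdown. The kinase Atg1, with its partners Atg13 and Atg17, starts the process, and Atg9 brings membrane to the growing structure. Atg41, also named Icy2, binds Atg9, and its gene is among the targets of Zap1, the activator that zinc-deficient yeast uses to raise zinc uptake.

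Each deleted gene was at or near 0 in the libraries labelled with its deletion and read in all others. ATG41 (YPL250C, chrXVI:74309-74719, minus strand of RefSeq R64) had 1, 0, 0 and 0 counts in the atg41 libraries, against 4983, 7167, 7737 and 9095 counts in the atg1 libraries. The ratio of atg1 to atg41 was 26972, with a 95% counting interval of 4840 to 1065359. ATG1 (YGL180W, chrVII:160065-162758, plus strand) had 830, 716, 805 and 778 counts in the atg41 libraries and 0 in each of the 4 atg1 libraries, and was at least 279-fold higher in atg41, taking a floor of 3 counts per library. The interval and the floor reflect counting error alone, because the reads carry no molecular identifiers and may repeat a molecule. Of the genes beside ATG41, the ribosomal protein gene RPL36B was lower in atg41 (log2 fold change -0.76 ± 0.18, edgeR adjusted p = 0.00324, or -0.49 without atg1 replicate 1) and YAH1, a mitochondrial ferredoxin, was barely so (-0.18 ± 0.07, edgeR adjusted p = 0.0409, 0.178 at the highest among the alternatives). Beside ATG1, GTS1 changed by -0.16 ± 0.05 and the kinase gene TOS3 by 0.22 ± 0.08 (edgeR adjusted p = 0.0164 and 0.0197, each lost under at least 1 alternative), and the TOS3 value was 0.14 without atg1 replicate 1.

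Totals ran from 9623157 to 11247182 expected counts per library, and 6195 of 6660 features passed the filter on low counts. On the first principal component, with 65.8% of the variance, the atg41 libraries lay between -40.66 and -33.93, and the atg1 and WT libraries together between 15.98 and 24.15. Replicate 1 of atg1 stood apart from the other 3 atg1 libraries. A chi-square of the counts per gene was 33 to 55.3 for the pairs holding it and 3.43 to 9.11 for the other pairs within a strain, and the ribosomal protein genes in particular were high in it. Some results that shift without atg1 replicate 1 are given without it as well, but not all. For example, without it the log2 fold change of CIT2 went from 1.61 to 1.39 and that of BAP2 from -1.42 to -1.21. RPA34 went from -1.43 to -1.25 and PMA1 from -0.66 to -0.54. Among the marker genes of the background, HIS3 did not pass the test (-0.04 ± 0.07, edgeR adjusted p = 0.643), whereas LYS2, a lysine synthesis gene, had 99.5, 104, 114 and 110 CPM in atg41 libraries, against 181, 214, 201 and 210 CPM in atg1 libraries and 189 to 205 CPM in WT libraries. It was lower in every atg41 library (-0.91 ± 0.06, edgeR adjusted p = 1.60e-08). The labels do not give the number of LYS2 copies in each strain, so a difference in copies and one in transcript per copy cannot be told apart. MET17, also a marker gene of this background, was 3.48 higher in atg41 on the log2 scale and is described with the sulfate genes, and its copies are likewise not given.

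Zinc-starved cells of the atg41 and atg1 strains had widely different transcript levels. The number of clones is not stated, so effects of the deletions and other differences between the strains cannot be told apart. With edgeR's quasi-likelihood test at an adjusted p of 0.05, 3961 of 6195 genes were called (63.9%), 1918 higher in atg41 (31%) and 2043 lower (33%). In 3483 genes (56.2%) all 4 libraries of one strain lay above all 4 of the other. Most changes were small: 61.3% of called genes stayed below 1.5-fold, 284 rose at least 2-fold and 415 fell at least 2-fold, with 69 and 41 of these past 4-fold. The median log2 fold change over all genes was -0.004. Counts of called members in a gene list are read against these shares.

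**Figure D1:**
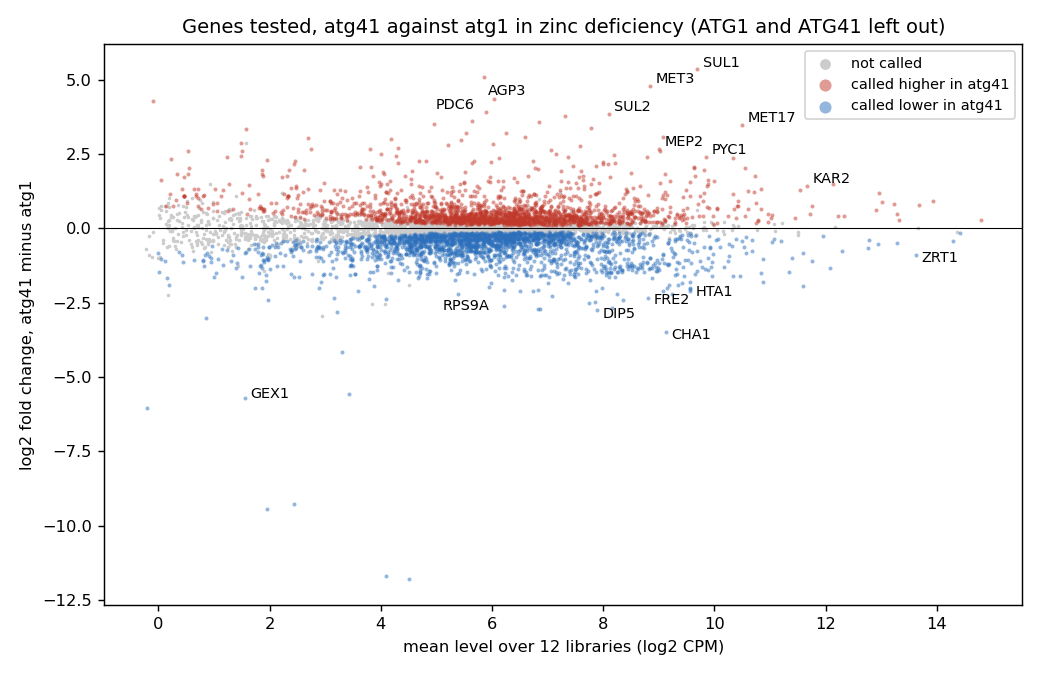
Each point is a gene, with its mean level over the 12 libraries (log2 CPM) on the horizontal axis and its log2 fold change, atg41 minus atg1, on the vertical axis, red where called higher in atg41, blue where called lower and grey where not called. ATG1 and ATG41 are left out. The sulfate genes SUL1 and MET3 are among the highest points at 5.35 and 4.81, and the points lower than GEX1 are features without a gene name that had no reads in any atg41 library.

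Yeast makes methionine and cysteine from sulfate. Sul1 and Sul2 import it, Met3 and Met14 activate it, Met16 reduces it to sulfite, the sulfite reductase of Met5 and Met10 makes sulfide, and Met17 joins sulfide to a carbon skeleton. These genes answer to the activator Met4, which reaches DNA through Cbf1, Met28, Met31 and Met32, and which the ubiquitin ligase subunit Met30 holds in check.

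The whole sulfate assimilation route was raised in atg41. All 11 of its 11 measured genes were called higher, none lower, with a median log2 fold change of 3.37 against -0.004 over all genes, and in all 11 the strains did not overlap. The 11 genes together took 1.1, 1.11, 1.16 and 0.987% of counts in the atg41 libraries, against 0.0737, 0.096, 0.107 and 0.115% in the atg1 libraries and 0.0915 to 0.0954% in the WT libraries. The atg1 libraries thus lay around the WT libraries and the atg41 libraries far above both.

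SUL1, the high-affinity sulfate permease (chrII:789235-791814, plus strand), had 2384, 2352, 2670 and 2033 CPM in atg41 libraries, against 46.7, 55.2, 63.7 and 66.2 CPM in atg1 libraries and 58.1 to 61.8 CPM in WT libraries. Leaving the deleted genes aside, it was the largest rise among the genes named, at 5.35 ± 0.12 (log2 fold change ± SE, n = 4 libraries per strain, edgeR adjusted p = 1.03e-13). The second permease, SUL2, had 727, 712, 789 and 663 CPM in atg41 libraries and 36.7, 44.9, 60.3 and 59 CPM in atg1 libraries, a change of 3.84 ± 0.13 (edgeR adjusted p = 4.06e-11). MET3, ATP sulfurylase, had 1362, 1336, 1330 and 1165 CPM in atg41 libraries and 41.8, 45.2, 46.1 and 51.9 CPM in atg1 libraries, a change of 4.81 ± 0.08 (edgeR adjusted p = 7.67e-15). In each of these genes the lowest atg41 library exceeded the highest atg1 library many times over. MET17, which makes homocysteine, had 3694, 3828, 3911 and 3405 CPM in atg41 libraries, against 176, 322, 384 and 448 CPM in atg1 libraries, and rose by 3.48 ± 0.23 (edgeR adjusted p = 1.43e-07). The remaining steps also rose: MET14, the APS kinase, by 3.78, MET5 by 3.37, MET16 by 2.84, and MET10 by 2.41, while MET8 and MET1, which make the siroheme of sulfite reductase, rose by 2.45 and 2.28. MET22, a phosphatase that clears a by-product of the route, rose least, by 1.52 ± 0.08 (edgeR adjusted p = 2.01e-09).

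**Figure D2:**
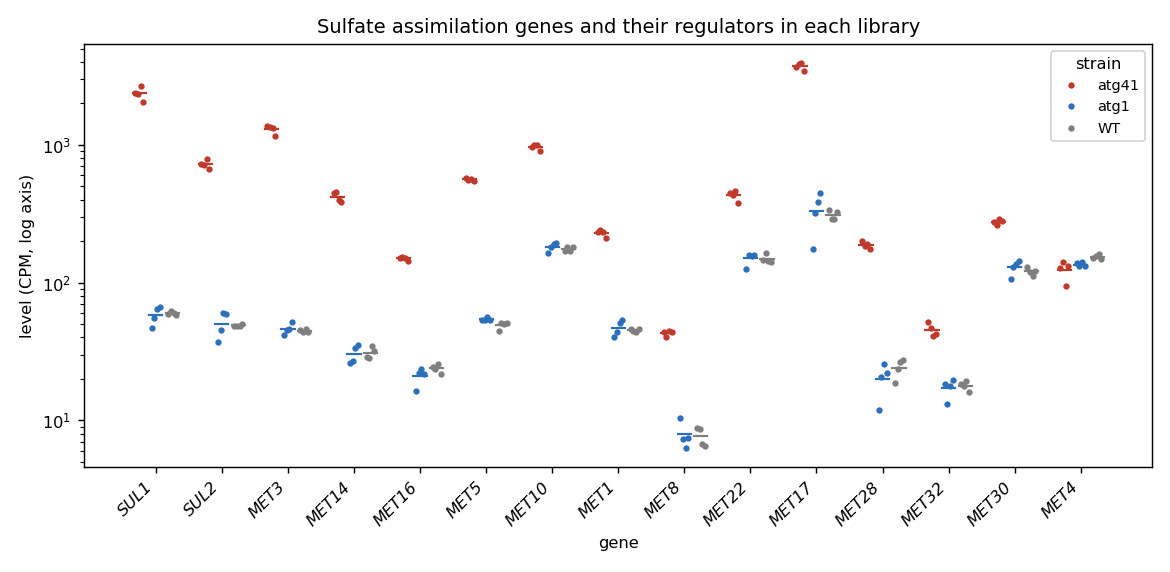
Points are single libraries and short lines the strain means, with the level in CPM on a log axis, for the 11 sulfate genes and 4 of their regulators in atg41 (red), atg1 (blue) and WT (grey). The 4 atg41 libraries of SUL1 sit between 2033 and 2670 CPM and those of atg1 between 46.7 and 66.2 CPM, while MET4 overlaps.

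The Met4 regulators rose only in part, with 6 of 9 measured genes called higher and none lower (median 0.31). MET28 had 199, 185, 189 and 174 CPM in atg41 libraries, against 11.9, 20.6, 25.5 and 22 CPM in atg1 libraries, and rose by 3.21 ± 0.17 (edgeR adjusted p = 1.83e-08). MET32 rose by 1.41 ± 0.11, MET30 by 1.10 ± 0.08 and CBF1 by 0.26 ± 0.05 (edgeR adjusted p = 9.13e-08, 3.03e-08 and 6.34e-04). MET4 itself had 127, 142, 95 and 131 CPM in atg41 libraries and 138, 131, 140 and 131 CPM in atg1 libraries, a change of -0.13 ± 0.09 that did not pass (edgeR adjusted p = 0.227). MET31 also did not pass, at 0.21 ± 0.10 (edgeR adjusted p = 0.0943).

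The DNA before these genes is shown because the Met4 complex reads it directly. Cbf1 binds CACGTG, and Met31 and Met32 bind a site with the core AAACTGTGG, which reads CCACAGTTT on the opposite strand. In the window of 250 bases before to 50 after the start codon, searched on both strands, CACGTG lay before 5 of 11 sulfate genes (45.5%) and 2.95% of all 5738 promoters searched. Widening the window to 500 bases before the start codon, a choice made after the shorter window had been read, gave 10 of 11 sulfate genes (90.9%), SUL1 being the one without, and 6.27% of all promoters. In this wider window CACGTG was found before 16.4% of genes at least 2-fold higher in atg41 and 4.08% of those at least 2-fold lower, and AAACTGTGG before 5.58% and 0.272%, against 0.871% of all promoters. Other motifs were searched in the shorter window among the genes at least 2-fold higher and those at least 2-fold lower. AGGGG, which Msn2 and Msn4 bind, lay before 22.3% and 19% of them, TGACTC, of Gcn4, before 6.69% and 6.79%, TTCNNGAA, of the heat shock factor, before 16% and 12%, and GATAAG, of the GATA factors, before 17.8% and 14.7%, against 21.7, 8.09, 12.9 and 14.8% of all promoters. CAGCGTG of the unfolded protein response lay before 2.23% and 1.09% (all promoters 1.15%), and CACGTTT, a weaker Pho4 site, before 1.49% and 4.35% (3.64%). GGTGGCAAA of the proteasome genes lay before 1.12% and 0.272% (1.22%). The zinc-responsive element, searched in a strict form, lay before 0.0871% of all promoters and none of either set. Even in the wider window that form lay before only 9 of 5738 promoters, 2 of 14 zinc transporter genes and 2 of 27 further Zap1 targets. A form this rare cannot show whether the changed genes hold Zap1 sites. The following stretches hold the matches, from RefSeq R64, 5′ to 3′ on the strand of the gene, with the motif in capitals.
MET3: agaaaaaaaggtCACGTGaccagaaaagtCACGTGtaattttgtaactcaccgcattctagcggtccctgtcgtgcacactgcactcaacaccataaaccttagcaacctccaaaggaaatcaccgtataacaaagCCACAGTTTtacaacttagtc
MET28: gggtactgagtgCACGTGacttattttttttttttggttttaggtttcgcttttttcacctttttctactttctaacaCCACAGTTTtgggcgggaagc
MET30: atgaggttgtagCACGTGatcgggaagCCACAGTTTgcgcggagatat
MET10: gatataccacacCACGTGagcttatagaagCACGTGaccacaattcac
MET16: ttatcatcatttCACGTGgctagtaaaaga
SUL2: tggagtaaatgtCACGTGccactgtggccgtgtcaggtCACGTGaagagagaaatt
The MET3 stretch is chrX:455850-456006 (plus strand), with CACGTG starting 377 and 360 bases before the start codon and the Met31 and Met32 core 253 bases before it. In MET28 (chrIX:384252-384350, minus strand) the 2 motifs start 219 and 153 bases before the start codon, and in MET30 (chrIX:268462-268509, plus strand) 177 and 162 bases before it. MET10 (chrVI:213051-213098, plus strand) and SUL2 (chrXII:323198-323253, plus strand) hold CACGTG in 2 copies, starting 249 and 231 bases before the start codon in MET10 and 334 and 308 in SUL2. MET16 (chrXVI:877793-877822, minus strand) holds 1 copy, 178 bases before. A match describes letters and not binding, and in the wider window CACGTG also lay before 64.3% of 28 phosphate genes, whose activator Pho4 reads the same letters.

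Genes that take sulfur from other sources moved with the sulfate route. Of 14 measured scavenging genes 10 were called higher and 4 lower (median 1.66). AGP3, an amino acid permease, had 184, 190, 188 and 157 CPM in atg41 libraries, against 8.48, 10.3, 9.38 and 7.22 CPM in atg1 libraries, and rose by 4.35 ± 0.10 (edgeR adjusted p = 1.03e-13). MMP1, which imports S-methylmethionine, rose by 3.09, JLP1, a dioxygenase that frees sulfite from sulfonates, by 2.96, OPT1, an oligopeptide and glutathione transporter, by 2.63, the low-affinity methionine permease MUP3 by 1.91, and SAM3, which imports S-adenosylmethionine, by 1.57. The 4 lower members were the general permease GNP1, the glutathione exchangers GEX1 and GEX2, and MUP1, the high-affinity methionine permease. MUP1 had 884, 886, 867 and 690 CPM in atg41 libraries and 1201, 1323, 1264 and 1402 CPM in atg1 libraries, and changed by -0.64 (SE 0.08, edgeR adjusted p = 1.00e-05). GEX1 and GEX2 are near-identical, so reads may be split between them. GEX1 had 0, 0.108, 0.106 and 0 CPM in atg41 libraries, against 4.4, 4.23, 2.3 and 2.65 CPM in atg1 libraries.

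Downstream of sulfide, the branch that links homocysteine, cysteine and glutathione rose in 12 of 17 measured genes and fell in 4 (median 0.49). STR3, cystathionine beta-lyase, rose by 2.38 ± 0.18, CYS3, cystathionine gamma-lyase, by 1.95 ± 0.09, GSH1, the first enzyme of glutathione synthesis, by 1.73 ± 0.05, and CYS4, cystathionine beta-synthase, by 1.28 ± 0.06 (edgeR adjusted p between 2.99e-07 and 1.49e-12). The glutathione transferase GTO1 rose by 2.28 and GTO3, of the same family, changed by -0.61. The methionine cycle was mixed, with 11 of 23 genes higher, 5 lower and a median of 0.09. MHT1, a homocysteine methyltransferase, rose by 2.80, MET2, which makes the acceptor O-acetylhomoserine, by 2.78, and the methionine synthase MET6 by 1.63. SAM2 and SAM1, near-identical S-adenosylmethionine synthetases, rose by 1.64 and 0.43.

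Among the carbon enzymes, PDC6 moved with the sulfur genes. It had 148, 143, 184 and 142 CPM in atg41 libraries, against 5.34, 9.26, 14.5 and 11.6 CPM in atg1 libraries and 10.2 to 15.6 CPM in WT libraries, a rise of 3.91 ± 0.22 (edgeR adjusted p = 2.68e-08). Per length it remained a minor pyruvate decarboxylase: PDC6 averaged 92.3 FPKM in atg41 and 6.43 FPKM in atg1, and PDC1, the main isozyme, 12459 FPKM in atg41 and 13934 FPKM in atg1. PDC1 did not pass the test (-0.11 ± 0.07, edgeR adjusted p = 0.208), and PDC5 changed by -0.47 (edgeR adjusted p = 9.90e-05). ALD6, the main cytosolic aldehyde dehydrogenase, fell by 1.82 (SE 0.08, edgeR adjusted p = 1.27e-10), with 263, 247, 318 and 289 CPM in atg41 libraries and 902, 1056, 1014 and 979 CPM in atg1 libraries. The 3-phosphoglycerate dehydrogenases of serine synthesis changed in opposite directions, SER33 by 3.08 ± 0.07 and SER3 by -1.73 ± 0.06 (edgeR adjusted p = 8.34e-14 and 2.75e-11). GRX8, a glutaredoxin, rose by 3.21, and DPI8, a little-studied gene, by 3.57.

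Genes for making ribosomes were lower in atg41. Of 136 measured cytosolic ribosomal protein genes, 135 were called lower and 1, RPL15B, higher. The median log2 fold change was -1.28, and 109 of the 136 fell at least 2-fold. RPL15B changed by only 0.29 ± 0.07, and its atg41 and atg1 libraries overlapped. In the atg41 libraries the 136 genes together took 2.68, 2.69, 2.96 and 2.71% of all counts. Their share was 9.44, 5.84, 4.89 and 5.12% in the atg1 libraries and 4.75 to 5.2% in the WT libraries. Every atg41 library lay below every atg1 and WT library, and atg1 replicate 1 lay far above the rest. Without that library 135 were lower and 1 higher, with a median of -1.0. That median sits at the 2-fold limit, so the count of genes past 2-fold rests in part on atg1 replicate 1. RPL3, a large-subunit protein with no paralog, had 831, 836, 1011 and 894 CPM in atg41 libraries, against 3504, 2368, 2010 and 2189 CPM in atg1 libraries, a change of -1.50 ± 0.14 (edgeR adjusted p = 1.18e-06), or -1.29 without atg1 replicate 1. Paralog pairs are near-identical and their reads may be split, so single members are uncertain: RPL8A and RPL8B changed by -2.51 and -1.34, and RPS9A and RPS9B by -2.61 and -1.16. Without atg1 replicate 1 the changes were -2.18 and -1.05 for RPL8A and RPL8B, and -2.42 and -0.86 for RPS9A and RPS9B.

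**Figure D3:**
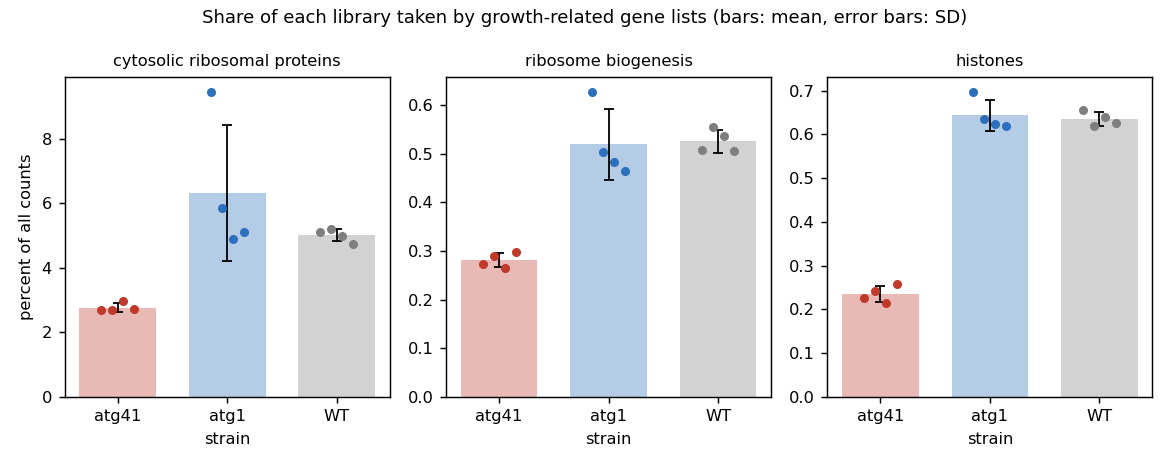
Bars give the mean share of all counts, in percent, taken by cytosolic ribosomal protein, ribosome biogenesis and histone genes in atg41, atg1 and WT, error bars the SD over 4 libraries and points the libraries. For ribosomal proteins the atg41 libraries sit between 2.68 and 2.96%, below all others, and atg1 replicate 1 is highest at 9.44%.

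Ribosome assembly factors, which process and fold ribosomal RNA, fell in 63 of 64 measured genes, with none higher (median -0.80, or -0.73 without atg1 replicate 1). NSR1, a nucleolar rRNA-processing protein, had 61.1, 65.5, 63.3 and 71.5 CPM in atg41 libraries, against 224, 184, 162 and 189 CPM in atg1 libraries, and fell by 1.54 on the log2 scale (SE 0.09, edgeR adjusted p = 2.29e-09). The helicase gene DBP2 fell by 1.60 and NOP58, of the box C/D snoRNPs, by 1.38. The list for RNA polymerase I, which transcribes rRNA, had 11 of 15 genes lower and none higher (median -0.58). RPA34 had 15.6, 11.8, 11.3 and 13.4 CPM in atg41 libraries, against 47.8, 31.8, 30.9 and 30.6 CPM in atg1 libraries. It fell by 1.43 (SE 0.16, edgeR adjusted p = 5.41e-06), and RPA190, for the largest subunit of the polymerase, fell by 0.94. Mitochondrial ribosomal proteins did not follow: 23 of 73 were higher and 8 lower, with a median of 0.08.

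The promoters of these assembly genes share GATGAG, the core of the polymerase A and C (PAC) element, and 3 matches with their surroundings are shown as examples from RefSeq R64, 5′ to 3′ on the strand of the gene, with the core (or CTCATC, the core on the opposite strand) in capitals.
NSR1: ttgcaagggcagCTCATCgcaagaacgaaa
NOP58: aaatttttcaacCTCATCgaaaattttcag
RPA34: aaaaattttatcGATGAGcattgaatagct
These lie at chrVII:807826-807855 (NSR1, minus strand), chrXV:898465-898494 (NOP58, minus strand) and chrX:140315-140344 (RPA34, plus strand), starting 187, 122 and 110 bases before the start codon. In the window of 250 bases before to 50 after the start codon, GATGAG lay on either strand before 58 of 64 assembly genes (90.6%), 12 of 15 polymerase I genes (80%) and 15 of 136 ribosomal protein genes (11%), against 20.2% of all promoters, 30.4% of those at least 2-fold lower in atg41 and 19.3% of those at least 2-fold higher.

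Transcripts that accompany division were also lower in atg41. In bulk culture, fewer cells in a phase and less RNA per cell cannot be told apart. All 11 measured histone genes were lower (median -1.29). HTA1, an H2A gene, had 229, 253, 226 and 261 CPM in atg41 libraries, against 1132, 1042, 978 and 982 CPM in atg1 libraries, and fell by 2.09 on the log2 scale (SE 0.07, edgeR adjusted p = 1.18e-11), and HHT1 and HHF1, for H3 and H4, fell by 2.04 and 2.02. Histone gene pairs are similar in sequence, so the split between them is uncertain. All 10 genes of daughter cell separation, which act after mitosis, were lower (median -1.86). SCW11, a wall glucanase, had 78.5, 97.9, 76.1 and 90.1 CPM in atg41 libraries, against 511, 474, 422 and 432 CPM in atg1 libraries, and fell by 2.42 (SE 0.09, edgeR adjusted p = 1.42e-11). DSE2 fell by 2.22, DSE1 by 2.11, AMN1, which helps daughters leave mitosis, by 2.06, and the chitinase CTS1 by 1.80. Of 19 cyclins and SIC1, 13 were lower and none higher (median -0.29). The mitotic cyclins CLB1 and CLB2 fell by 1.57 and 0.92, SIC1, an inhibitor of the cyclin-dependent kinase, by 1.23, and SWI5, an activator of late mitotic genes, by 1.44, while CLN3, which starts the cycle, did not pass (-0.02 ± 0.06, edgeR adjusted p = 0.803).

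Markers of haploid cells did not rise as a group. Of 13 measured haploid-specific genes 8 were lower in atg41 and none higher (median -0.59), with STE5 at 14.7, 16.4, 13.6 and 15.3 CPM in atg41 libraries and 28.1, 34.4, 33.2 and 31.7 CPM in atg1 libraries. Of 5 alpha-specific genes 3 were higher and 2 lower, and of 4 a-specific genes 1 was higher and 3 lower, none of the alpha-specific genes by 2-fold upward. AFB1 and MF(ALPHA)2 rose by 0.54 and 0.43, and MF(ALPHA)1 and STE3 changed by -1.67 and -1.58, all at low levels. The MF(ALPHA)2 call was lost with libraries scaled to equal totals, without atg1 replicate 4 and without atg41 replicate 3 (edgeR adjusted p up to 0.0595), and equal totals left 2 alpha-specific genes higher in place of 3. MF(ALPHA)2 had 8.85 to 11 CPM in atg41 libraries and 6.28 to 8.23 CPM in atg1 libraries. Meiosis and spore genes were higher in 15 of 28 and lower in 3 (median 0.40). REC8, the meiotic cohesin, had 27.6, 25.3, 29.1 and 29.4 CPM in atg41 libraries and 3.04, 6.65, 8.04 and 8.59 CPM in atg1 libraries. Their part in the other results was not tested.

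The amino acid permeases that the surface sensor Ssy1 turns on fell. Of 18 measured genes of this system, 11 were lower and 3 higher (median -0.37), and 7 of the lower ones fell at least 2-fold. The glutamate and aspartate permease DIP5 had 51.3, 49.2, 50.3 and 48.7 CPM in atg41 libraries, against 387, 331, 317 and 315 CPM in atg1 libraries, and fell by 2.76 on the log2 scale (SE 0.07, edgeR adjusted p = 2.84e-13). The 7 permeases past 2-fold, DIP5, BAP3, GNP1, TAT1, AGP1, TAT2 and BAP2, fell by 1.42 to 2.76 and none of them overlapped between strains. CHA1, the serine and threonine deaminase that serine and threonine induce, had 67.9, 70.6, 82.1 and 82.2 CPM in atg41 libraries and 843, 859, 822 and 848 CPM in atg1 libraries, and fell by 3.48 (SE 0.07, edgeR adjusted p = 7.66e-14). The sensor gene SSY1 rose by 0.56, and the arginine permease CAN1 did not pass (-0.03 ± 0.05, edgeR adjusted p = 0.664). Leaving out atg1 replicate 1 or 2, or atg41 replicate 2 or 3, left 1 gene called higher in place of 3.

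Genes held down by good nitrogen sources moved the other way in part, with 17 of 32 higher and 7 lower (median 0.41). The ammonium permease MEP2 had 1007, 1080, 1268 and 1270 CPM in atg41 libraries, against 108, 174, 216 and 230 CPM in atg1 libraries and 173 to 217 CPM in WT libraries, and rose by 2.67 ± 0.20 (edgeR adjusted p = 3.72e-07). MEP1, a further ammonium permease, rose by 1.58 and the GATA activator GAT1 by 1.09. GDH1, which fixes ammonium into glutamate, rose by 2.36 ± 0.09 (edgeR adjusted p = 2.82e-11), with 2512 to 3056 CPM in atg41 libraries and 495 to 604 CPM in atg1 libraries. The urea permease DUR3 fell by 0.89 and the general permease GAP1 rose by 0.57. Amino acid synthesis genes under Gcn4 leaned lower, with 21 of 47 lower and 10 higher (median -0.18, 26 lower and 13 higher without atg1 replicate 1), and ASN1, asparagine synthetase, fell by 1.15. GCN4 itself changed by -0.27 ± 0.08 (edgeR adjusted p = 0.00827, -0.18 without atg1 replicate 1).

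Iron uptake genes were lower in atg41. All 10 siderophore uptake genes were called lower (median -1.07), and in 9 of them the strains did not overlap. FRE2, a ferric reductase, had 104, 105, 121 and 123 CPM in atg41 libraries, against 506, 619, 615 and 573 CPM in atg1 libraries, and fell by 2.35 on the log2 scale (SE 0.08, edgeR adjusted p = 1.20e-11). The cell wall mannoprotein FIT1 fell by 1.61, the siderophore carrier SIT1 by 1.04, and FIT3 by 0.41. In the reductive pathway and iron sparing, 14 of 28 genes were lower and 6 higher (median -0.33): the permease FTR1 fell by 1.47, its oxidase partner FET3 by 0.76, and the copper transporter CTR1 by 1.45, while LSO1 rose by 2.67 ± 0.28 (edgeR adjusted p = 4.50e-06).

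Zinc genes changed in both directions, and the high-affinity transporter was lower. ZRT1 had 8167, 8930, 8106 and 7851 CPM in atg41 libraries, against 15010, 15229, 14829 and 15826 CPM in atg1 libraries and 13745 to 15175 CPM in WT libraries, and changed by -0.88 (SE 0.06, edgeR adjusted p = 1.47e-08). FET4, which carries zinc and iron with low affinity, fell by 0.92, ZRT2 by 0.46 and the vacuolar zinc exporter ZRT3 by 0.24. ZAP1 itself did not pass, at 0.11 ± 0.07 (edgeR adjusted p = 0.155). Of 14 zinc transporter and related genes 7 were lower and 4 higher (median -0.13), and of 27 further Zap1 targets 9 were lower and 10 higher (median 0.01, or -0.05 with libraries scaled to equal totals), close to the shares over all genes. Individual targets went opposite ways: ADH4, an alcohol dehydrogenase, rose by 1.32 ± 0.12 (edgeR adjusted p = 2.78e-07), with 3078 to 3317 CPM in atg41 libraries and 1710, 1147, 1076 and 1140 CPM in atg1 libraries, IZH4 rose by 0.96, and the abundant ZPS1, a secreted protein, changed by -0.15 ± 0.06 (edgeR adjusted p = 0.0469), a call lost under several alternatives, up to an adjusted p of 0.512. Of 22 measured genes of zinc proteins, 13 were higher and 7 lower (median 0.26). Among single zinc enzymes, ADH1 fell by 0.44. SOD1, the copper and zinc superoxide dismutase, fell by 1.57 (SE 0.21, by 1.26 without atg1 replicate 1, edgeR adjusted p = 3.85e-05).

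Genes of protein folding and export from the endoplasmic reticulum (ER) were higher in atg41. Of 27 ER chaperone and unfolded protein response genes, 22 were higher and 1 lower (median 0.69). KAR2, the ER Hsp70, had 5641, 5802, 5720 and 5481 CPM in atg41 libraries, against 2091, 2028, 2051 and 2187 CPM in atg1 libraries and 1877 to 2053 CPM in WT libraries, and rose by 1.44 ± 0.06 (edgeR adjusted p = 3.46e-11). The disulfide isomerase PDI1 rose by 1.29, its oxidase ERO1 by 1.42 and HAC1, the activator of this response, by 1.03, while ERV2, a further thiol oxidase, was the 1 member lower (by 0.72). ULI1, an unfolded protein response gene of little-known function, rose most, by 3.63. ER-associated degradation had 11 of 16 genes higher and 2 lower (median 0.32), and COPII coats and cargo receptors 17 of 23 higher and 3 lower (median 0.43), with ERV29 up by 1.11. In the cytosol 21 of 28 chaperone genes were higher and 4 lower (median 0.52). The Hsp90 gene HSP82 and its helpers STI1 and AHA1 rose by 1.12, 1.22 and 1.16, and the stress-induced Hsp70 gene SSA4 and the ribosome-bound SSB1 fell by 0.90 and 0.72. SSB1 is near-identical to its paralog, and its change was -0.47 without atg1 replicate 1.

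Most genes of central carbon breakdown were higher. The tricarboxylic acid cycle had 17 of 21 genes higher and 3 lower (median 0.54), glycolysis 14 of 17 higher and none lower (median 0.58), and the retrograde response, which supplies glutamate precursors, 11 of 15 higher and 2 lower (median 0.54). Pyruvate carboxylase PYC1 had 2024, 2091, 2080 and 1973 CPM in atg41 libraries, against 238, 353, 359 and 594 CPM in atg1 libraries and 302 to 364 CPM in WT libraries, and rose by 2.40 ± 0.22 (edgeR adjusted p = 1.77e-06). The citrate synthases CIT1 and CIT2 rose by 1.83 and 1.61, the hexokinase HXK1 by 1.35, and TDH2, which shares reads with near-identical paralogs, by 1.51. The malic enzyme gene MAE1 was among the exceptions, at -0.50. The pentose phosphate and glycerol list had 12 of 23 higher and 3 lower (median 0.15, with 12 higher and 6 lower without atg1 replicate 1). In it GND1 fell by 1.89 and ZWF1, which acts earlier in the pathway, rose by 0.91. Ergosterol genes were lower in 14 of 31 and higher in 9 (median -0.14), with ERG5 and ERG3 down by 1.71 and 1.61 and the fatty acid desaturase OLE1 up by 1.52. In purine metabolism 14 of 24 genes were lower and 7 higher (median -0.38), the salvage gene HPT1 falling by 2.07 and AAH1 by 1.42, while IMD2, a subtelomeric member of a near-identical family, rose by 1.42.

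Autophagy genes of the conjugation and receptor lists changed little, and those of the Atg1 complex rose in part. In the conjugation and PI3-kinase list 2 of 13 genes were higher and 2 lower, and among selective receptors and sorting nexins 3 of 13 were higher and 1 lower, so that 30.8% of each list was called against 63.9% of all genes. Without atg1 replicate 1 the counts were 2 higher and 3 lower in each list. ATG8, the ubiquitin-like protein of the forming membrane, had 36.9, 31.6, 23.7 and 36.1 CPM in atg41 libraries and 16.7, 24.7, 31 and 27 CPM in atg1 libraries, and did not pass (0.36 ± 0.17, edgeR adjusted p = 0.0733, called under 5 of 21 alternatives). The receptor genes ATG39 and ATG32, for the nucleus and for mitochondria, overlapped between strains, at 0.04 ± 0.21 and 0.07 ± 0.15. The Atg1 complex and Atg9 cycling list, with ATG1 and ATG41 left out, had 6 of 10 genes higher and none lower (median 0.33). ATG17, its scaffold, had 158, 165, 126 and 150 CPM in atg41 libraries, against 29.3, 42.2, 59.1 and 52.9 CPM in atg1 libraries and 55.6 to 62.1 CPM in WT libraries, and rose by 1.70 ± 0.17 (edgeR adjusted p = 3.95e-06). Its partner ATG31 rose by 0.56, and ATG13 did not pass (-0.34 ± 0.16, edgeR adjusted p = 0.0786). Vacuolar hydrolases, which digest what autophagy delivers, were higher in 15 of 19 and lower in 2 (median 0.38): carboxypeptidase CPS1 rose by 1.85, protease B gene PRB1 by 1.76 and PEP4, protease A, by 0.41, and ATG22, which exports amino acids from the vacuole, and ATG42, a carboxypeptidase, were the 2 lower ones at -0.35 and -0.32.

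For most genes named so far the atg1 libraries lay close to the WT libraries, but in a few the difference came with an atg1 level away from WT. PHO84, the high-affinity phosphate permease, had 316, 341, 329 and 362 CPM in atg41 libraries, against 1041, 979, 924 and 956 CPM in atg1 libraries and 591 to 629 CPM in WT libraries, so WT lay between the deletions. It fell by 1.53 on the log2 scale (SE 0.06, edgeR adjusted p = 4.87e-11). SPL2, which restrains low-affinity phosphate uptake, showed the same order and fell by 1.66, and the acid phosphatase PHO11, near-identical to PHO12, fell by 1.16. PHO11 had 12, 17.4, 12.9 and 14.7 CPM in atg41 libraries, against 29.4, 31.7, 28.8 and 37.3 CPM in atg1 libraries and 11.2 to 16.1 CPM in WT libraries, so atg1 stood above both other strains. The phosphate list had 14 of 28 genes lower and 8 higher (median -0.15). VTC3, a polyphosphate polymerase subunit, rose by 0.37, with means of 406 CPM in atg41, 315 CPM in atg1 and 231 CPM in WT. On chromosome III, near its right end, the alcohol dehydrogenase gene ADH7 had 27.6, 27.5, 31.4 and 30.7 CPM in atg41 libraries, against 6.28, 6.44, 6.41 and 6.4 CPM in atg1 libraries and 22.3 to 24.1 CPM in WT libraries. Its neighbours RDS1 and AAD3 were 2.28 and 1.94 higher on the log2 scale in atg41 than in atg1, with atg1 again below both other strains. For these 3 genes the atg1 strain stood apart and the atg41 libraries lay near or somewhat above WT.

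**Figure D4:**
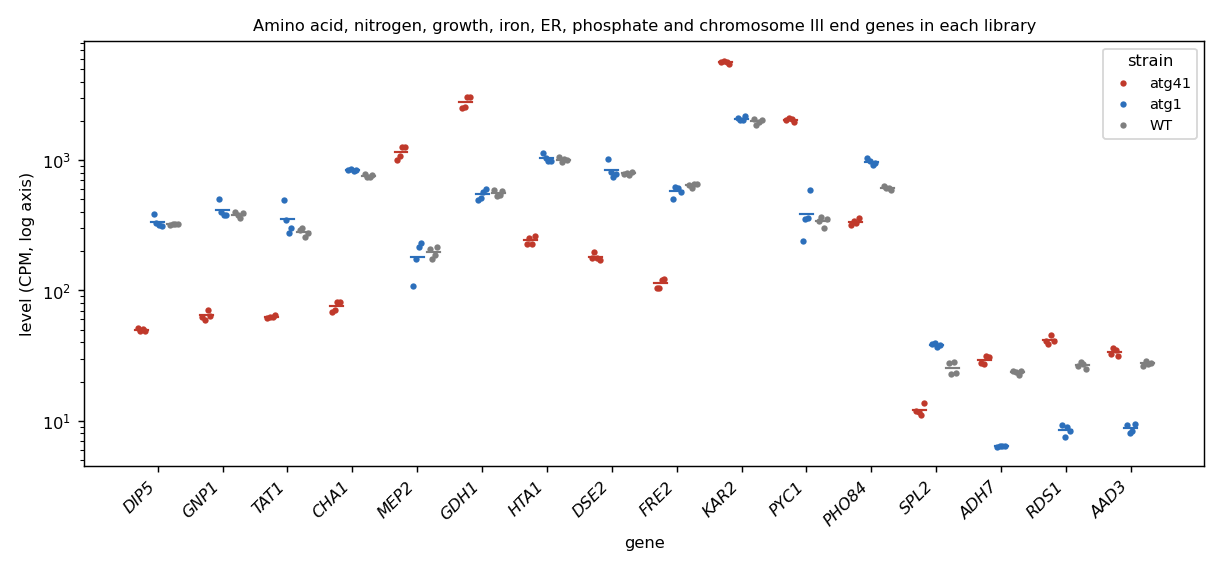
Points are single libraries and short lines the strain means, in CPM on a log axis, for genes of amino acid and ammonium uptake, division, iron, ER folding, carbon and phosphate and for 3 genes at the end of chromosome III, in atg41 (red), atg1 (blue) and WT (grey). From DIP5 to PYC1 the blue and grey points lie together and apart from the red ones, for PHO84 and SPL2 the grey points lie in between, and for ADH7, RDS1 and AAD3 the blue points lie apart.

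Further lists are given by their counts. Hexose transporters and sensors had 13 of 19 higher and 3 lower (median 0.42), gluconeogenesis and the glyoxylate cycle 11 of 16 higher and 2 lower (median 0.53), and the respiratory chain 14 of 23 higher and 3 lower (median 0.26). Stress genes under Msn2 and Msn4 had 9 of 29 higher and 10 lower (median 0.06, or -0.01 with libraries scaled to equal totals): HSP12, a membrane protector, did not pass (0.16 ± 0.27, edgeR adjusted p = 0.613), and YGP1, a secreted glycoprotein, fell by 1.31. Vacuolar ATPase subunits had 9 of 17 lower and 1 higher (median -0.17, with 9 lower and 4 higher without atg1 replicate 1), and the proton pump of the cell surface, PMA1, fell by 0.66. Oxidant defence had 14 of 33 higher and 11 lower, thiamine genes 12 of 22 higher and 5 lower, and proteasome genes 16 of 36 higher and 5 lower with a median of 0.12. YRO2, a membrane protein gene of unknown function, and PXR1, of rRNA processing, were also among the deepest falls at -2.72 and -2.38. Chromosome medians ran from -0.055 on chromosome V to 0.159 on chromosome VI. The 195 genes under 20 kb from a chromosome end had a median of 0.167, with 67.7% called, and the 5543 genes farther in had a median of 0.001, with 65.7% called.

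**Figure D5:**
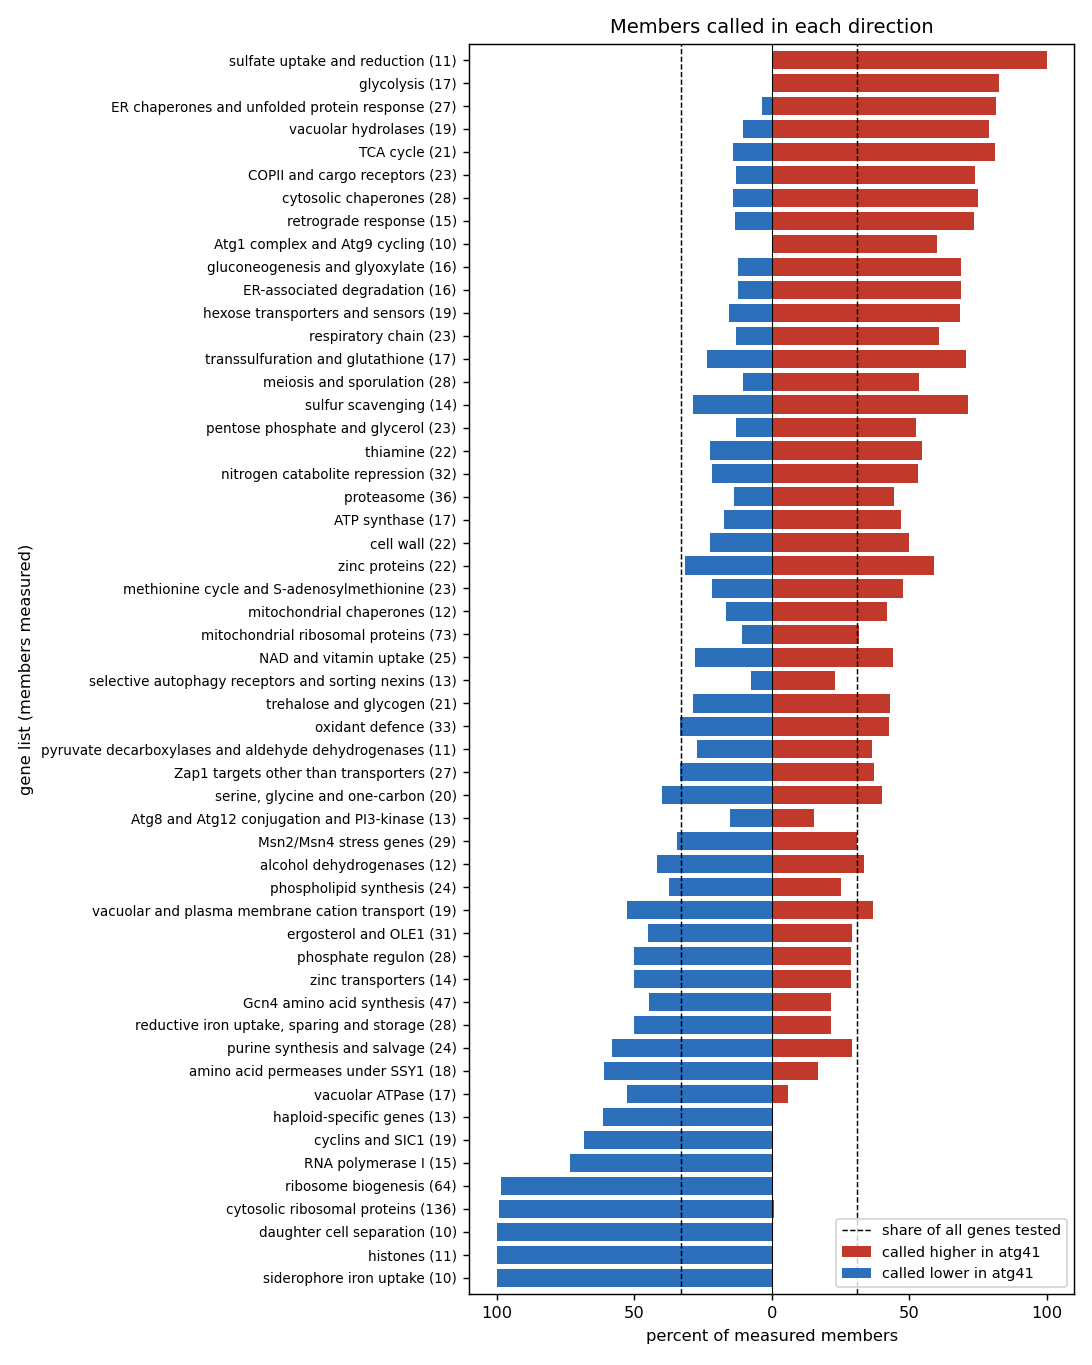
For each gene list with at least 10 measured members, bars give the percent of measured members called higher in atg41 (red, to the right) and lower (blue, to the left), and dashed lines mark the shares over all genes tested, 31% and 33%. Sulfate genes reach 100% higher, and siderophore, histone and daughter separation genes 100% lower.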

How the data were processed

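Poly-A RNA was sequenced in 12 libraries of 3 strains, per the labels. One deposited table gives expected counts per gene as the authors estimated them (18.36% not whole, rounded here), and a second deposited table gives FPKM, used for levels per length. The submitters' processing notes name BWA, STAR, RSEM and edgeR. The sources used here state neither role, version nor genome build. The values fitted RefSeq R64 gene models (99.5% of 3415 genes within 2 bases of 1 offset). A further 12 columns of per-sample values were not used.

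Libraries were TMM-scaled and tested with edgeR 4.0.16 (R 4.3.3), quasi-likelihood, all 12 libraries in 1 fit, atg41 minus atg1, two-sided, Benjamini-Hochberg over 6195 genes (minimum count 10). CPM uses TMM-scaled totals. Simulated 2-fold changes were called in 94% of 100 genes. Alternatives covered scaling, DESeq2 1.42.0, filters, GC and length trends, a replicate block and leaving out libraries.

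Members and lists were chosen with earlier results of these data known. Named genes were the deleted genes and neighbours, zinc readouts, the 12 largest changes each way, and up to 2 extreme members each way of the 15 lists with most calls. The 3 least changed genes of the 3 lists with fewest calls were added, and others were chosen after their values were seen.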

Additional observations from a re-analysis of the deposited data

Results flagged for a closer look

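In 22 of 368 groups of 4 libraries, 1 library stood apart from the other 3 by Dixon's ratio at the 95% level, which chance gives in about 1 group in 20. Replicate 1 of atg1 accounted for 10 of these. It was high, relative to the other atg1 libraries, for ADH4 at 1710 CPM, PMA1 at 10096 CPM, IMD2 at 22.2 CPM, CTS1 at 2891 CPM and RPA34 at 47.8 CPM, and low for GTO3 at 75.9 CPM, MET22 at 126 CPM, MUP3 at 19.3 CPM, HSP82 at 348 CPM and DMC1 at 11.1 CPM.

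Among the other atg1 libraries, replicate 4 was low for MF(ALPHA)1 at 0.548 CPM and for ERG5 at 185 CPM, and replicate 3 was high for ZIP1 at 41.8 CPM. In atg41, replicate 4 was low for MET3 at 1165 CPM and MUP1 at 690 CPM. Replicate 3 of atg41 was high for PDC6 at 184 CPM, CIT1 at 1127 CPM and PRB1 at 3405 CPM. Replicate 2 of atg41 was low for STE3 at 0.648 CPM and high for ATG3 at 36.9 CPM, and replicate 1 was low for PMA1 at 4827 CPM and high for IMG1 at 50 CPM. For the sulfur and carbon genes among these, the library that stood apart still lay on the same side of all atg1 libraries.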

How the results depend on the processing

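Over 21 alternatives, the number of genes called ran from 3685 with only the 8 libraries compared to 4049 without atg1 replicate 1, and from 3726 to 4049 over leaving out each library in turn. DESeq2 called 3936 and the fit without a filter 3982. Genes called at least 2-fold numbered 612 to 749, and 616 without atg1 replicate 1. Scaling by equal totals shifted the median to -0.058 and gave 1556 genes higher and 2214 lower. Of 166 named genes called, 159 kept their call and direction under all alternatives, and 7 lost it at least once. Genes of the Ssy1 system called higher numbered 1 in place of 3 with equal totals and with only the 8 libraries. Over leaving out each library they numbered 1 to 3, and the cause was not tested. The sensor gene SSY1 kept its call under all 21 alternatives. Same-numbered atg41 and atg1 libraries correlated in their deviations at -0.125 to 0.017, and same-numbered atg1 and WT libraries at -0.166 to 0.164. These values gave no clear sign of pairing by replicate number, but they cannot show how the libraries were handled. With a replicate block 3864 genes were called, or 3934 with the GC and length trend removed as well. Depth limits genes of a few CPM, such as GEX1 and MF(ALPHA)1.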

Other observations

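The share of codons for the sulfur amino acids in the messages differed too. Weighting each gene by its FPKM, methionine and cysteine codons made up 3.064, 3.067, 3.059 and 3.062% of all codons in the atg41 libraries, against 3.098, 3.148, 3.158 and 3.164% in the atg1 libraries and 3.145 to 3.162% in the WT libraries. All 4 atg41 libraries lay below all 4 atg1 libraries (difference -0.079 percentage points, exact two-sided permutation test p = 0.0286, the smallest that 4 against 4 allows). Without the 136 ribosomal protein genes, which are poor in these codons, the means were 3.087% in atg41 and 3.208% in atg1 (SD 0.003 and 0.011, n = 4 each, exact permutation p = 0.0286). Cysteine codons fell by 0.076 percentage points and methionine codons by 0.045 in that set. Single enzymes with few such codons were among those that rose. PDC6 has 1.07% methionine and cysteine codons, set beside 3.02% in PDC1 and 3.2% in PDC5, and MET3 has 1.17%, with a median of 3.33% over all 5737 genes with a coding sequence. ALD6, which fell, has 3.6%. Other genes that rose lay nearer the median: SUL1 has 2.91%, SUL2 2.69% and SAM2 3.12%. TDH2, which also rose, has 3.01%, set beside 2.71% in its paralog TDH3. By gene, the median was 3.2% among genes at least 2-fold higher in atg41, 3% among those at least 2-fold lower, and 3.42% among genes not called.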
